A study of Homo sapiens with 40 samples.

Results

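Topotecan (Tpc) was added to the TDP1 inhibitor OL9-119 in PARP1-knockout (PARP1-KO) HEK293A cells, and the resulting transcriptome was compared with that of PARP1-KO cells given OL9-119 alone. The comparison was made between the 4 libraries of the combination and the 4 libraries of OL9-119, 8 of the 40 libraries of the series, chosen by their titles. HEK293A is a human embryonic kidney cell line. The PARP1-KO cells were 1 clone with a homozygous CRISPR/Cas9 deletion of several PARP1 exons, called a knockdown in one of the labels. Both groups received 5 µM OL9-119, a usnic acid derivative dissolved in DMSO, and the combination group also received 50 nM Tpc. Cells were exposed for 5 to 5.5 h. Poly(A) RNA was sequenced. In the whole experiment both genotypes, wild type (WT) and PARP1-KO, were left untreated or were given DMSO, Tpc, OL9-119 or Tpc with OL9-119, with 4 libraries in each of the 10 conditions. WT cells received 100 nM Tpc, so that genotype and Tpc dose changed together. The labels call the replicates biological while the methods call them technical, and p-values here measure only the spread between these libraries.

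Tpc traps DNA topoisomerase 1 (TOP1) on the DNA it has nicked. TOP1 relaxes the supercoils that build up around a moving RNA polymerase, and a trapped TOP1 molecule is an obstacle to that polymerase. A polymerase crossing a long gene meets more such sites than one crossing a short gene. TDP1 cuts the bond between DNA and what remains of TOP1, and PARP1 senses the break and recruits repair proteins, TDP1 among them. OL9-119 inhibits TDP1, and the comparison asks what a TOP1 poison changes in cells that lack PARP1 and have their TDP1 inhibited.

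PARP1 mRNA was checked in every library in CPM, its share of the counts of a library after correction for library composition. PARP1-KO cells given OL9-119 had 36.1, 42.0, 33.2 and 38.1 CPM. The combination libraries had 39.6, 40.4, 33.1 and 43.9 CPM. The means were 4.77% and 4.94% of those in the WT libraries given the same treatments, where PARP1 was at 783 ± 21.0 and 795 ± 32.3 CPM (SD, n = 4, exact permutation test, two-sided, p = 0.0286 each, the smallest p that 4 against 4 allows). The 8 libraries held between 8260515 and 15159099 counts. All 5 markers of HEK293 cells on the list used were detected, led by NEFL at a mean of 277 CPM, while leukocyte markers summed to at most 2.29 CPM in any library. Endothelial markers summed to 4.53 to 8.61 CPM with OL9-119 and to 5.02 to 9.56 CPM with the combination. Of the 5 fibroblast markers COL1A2 had no count in any of the 8 libraries, while COL1A1 and COL3A1 averaged 14.55 and 11.7 CPM, and the summed level was 22.7 to 28.3 CPM with OL9-119 and 30.1 to 33.7 CPM with the combination. Their part in the results was not tested.

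One library was unlike the rest of its group. The library labelled Tpc + OL9-119 replicate 3 lay with the OL9-119 libraries in the level of long genes. The other combination libraries lay below every OL9-119 library in that level. Library names begin with L01, L02 or L03, and the labels do not say what this prefix means. Combination replicates 1 and 2 carried L01, replicate 3 L02 and replicate 4 L03. OL9-119 replicate 1 carried L01, replicates 2 and 3 L02 and replicate 4 L03. With the prefix as a term in the fit of all 40 libraries, no gene was called. Whether the prefix had a part was not tested. Whether the label of combination replicate 3 matches its content was not tested. The counts of called genes, the decline with span, the medians of the main lists and several of the leading genes are therefore given with and without it. Leaving it out was chosen with earlier results of these data known.

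With all 40 libraries in the fit, no gene passed an adjusted p of 0.01 (edgeR quasi-likelihood test, Benjamini-Hochberg, 0 of 28922 genes, 0%). At an unadjusted p under 0.05, 495 genes were higher in the combination (1.71%) and 737 were lower (2.55%). DESeq2 called 2 genes, both lower (0.00692%), NEAT1 and ENSG00000227733, a gene with no symbol in the annotation. The spread that this fit shares came from both genotypes and all treatments. When only the 8 libraries of the comparison were fitted, 9 genes rose (0.0311%) and 131 fell (0.453%). Without replicate 3 of the combination, 3 genes fell and none rose in the fit of the other 39 libraries (0.0104%), and 83 rose and 485 fell (0.287% and 1.68%) in the fit of the 7 libraries alone. Of the 131 genes that fell in the 8 libraries, 130 were also called lower in the 7. In 92.4% of the 131, replicate 3 of the combination had a higher CPM than each of its 3 companions. Of the 9 genes that rose, 6 were called higher in the 7. The number of called genes thus depended on which libraries set the spread, and the direction of the calls was mostly downward in each of these fits.

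What the lower genes shared was their length. Among the 13425 protein-coding genes whose counts in the 8 libraries averaged 10 or more, the median genomic span, from the start to the end of the annotated gene with introns, was 34.96 kb, and 21.2% spanned 100 kb or more. The 336 such genes that were lower at an unadjusted p under 0.05 (2.5%) had a median span of 253 kb, and 297 of them, 88.4%, spanned at least 100 kb. None of the 191 higher genes (1.42%) did, and their median span was 11.8 kb. In the 7 libraries without replicate 3, 477 of these genes fell (3.55%), 89.9% of them spanning 100 kb or more, and none of the 82 that rose did. The pattern held among the calls of the 8 libraries alone, where 0.939% of these protein-coding genes fell and 92.9% of those that fell spanned 100 kb or more.

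The median log2 fold change declined step by step with span. It was 0.14 for the 2404 genes under 10 kb, 0.09 for genes of 10 to 30 kb, and 0.00 for genes of 30 to 100 kb. It was -0.11 for the 1737 genes of 100 to 200 kb and -0.28 for the 911 genes of 200 to 500 kb. It reached -0.44 for the 200 genes of 500 kb and more, 180 of which (90.0%) had a value below 0. Over all 13425 genes the median was 0.03, and 44.7% were below 0. Without replicate 3 of the combination the slope was steeper, from 0.19 under 10 kb to -0.56 at 500 kb and more. These are descriptions over genes, which are not independent replicates. CPM gives the share of a gene in its library, and a smaller share of one class of genes means a larger share of the others.

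The plot of gene level by span shows each library on its own. For genes of 500 kb and more, the median log2 CPM relative to the OL9-119 mean was 0.03, -0.09, 0.03 and 0.06 in the 4 OL9-119 libraries. In the combination it was -0.56, -0.56, -0.07 and -0.53 for replicates 1 to 4. Replicates 1, 2 and 4 lay below every OL9-119 library in each class of 100 kb and more, and replicate 3 lay within the OL9-119 range. For genes under 10 kb the OL9-119 libraries ran from -0.08 to 0.12, and the combination libraries had 0.22, 0.23, 0.02 and 0.13, again with replicate 3 inside the OL9-119 range.

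**Figure D1:**
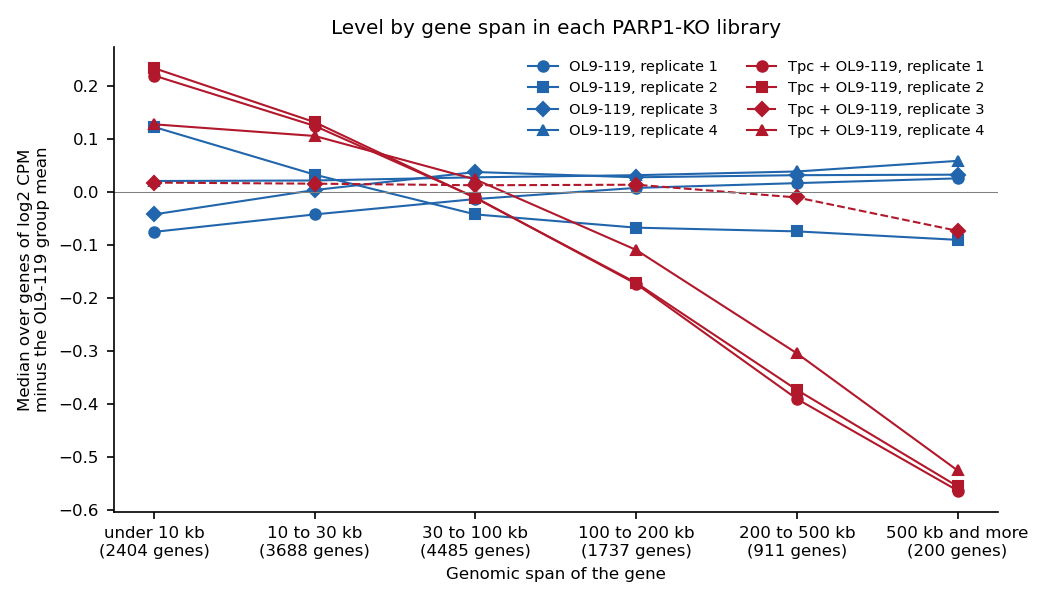
Median over genes of log2 CPM minus the OL9-119 group mean (vertical axis) for 6 classes of genomic span (horizontal axis, number of genes below each), 1 line per PARP1-KO library, OL9-119 in blue and Tpc + OL9-119 in red. Combination replicates 1, 2 and 4 descend from between 0.13 and 0.23 under 10 kb to between -0.56 and -0.53 at 500 kb and more, whereas combination replicate 3 (dashed) stays with the OL9-119 libraries.

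Span and exon length were looked at apart, since a gene of long span need not have long exons. Exon length here merges the exons of all annotated isoforms and can exceed the length of a single mRNA. Genes spanning 100 kb or more had a median log2 fold change of -0.17 where their merged exons came to 4 kb or more (2658 genes) and of -0.13 where the exons came to less (190 genes). Genes spanning under 100 kb had medians of 0.05 and 0.09 for the same exon classes. Both classes of long genes were therefore below both classes of short ones, as they were without replicate 3 (-0.23 and -0.15 against 0.06 and 0.12). Of the 190 long genes with short exons, 65.3% were below 0, and 10 (5.26%) were lower at an unadjusted p under 0.05, against 7 of 4066 (0.172%) for short genes with short exons.

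Not every very long gene was lower. Of the 74 genes of 500 kb and more that had a mean of 200 or more counts, 70 were below 0, 23 fell in the 8-library fit, and 4 were above 0. Those 4 were PCDH9, a protocadherin of 928 kb with a log2 fold change of 0.09, CAMTA1 with 0.12, SPAG16 with 0.13 and DLC1 with 0.04. PCDH9 was also at 0.30 in the comparison of Tpc with DMSO and at 0.43 in WT. Over all 200 genes the 20 with values above 0 had a median of 44.6 mean counts against 139 for the 180 below 0, and the lowest unadjusted p among the 20 was 0.290.

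The genes with the largest changes at an unadjusted p under 0.01, a mean of at least 50 counts and no overlap in CPM between the groups, replicate 3 included, were next described. Of 51 such genes 7 were higher and 44 lower. Among the 13425 protein-coding genes of the length classes, at any p, 2.92% were higher and 2.62% lower without overlap. Coordinates are given on GRCh38. GRIP1, which encodes a scaffold protein of synapses and spans 722 kb on chromosome 12 (66347431 to 67069162), had 21.0, 19.7, 27.9 and 21.5 CPM with OL9-119 and 6.60, 9.74, 14.3 and 10.2 CPM with the combination. The highest combination library was replicate 3, still below every OL9-119 library, as the rule required. Log2 fold changes given with an SE, here and below, come from the fit of all 40 libraries, where no gene passed in this comparison. An adjusted p from the 8 libraries belongs to a separate fit with its own SE. The log2 fold change of GRIP1 was -1.14 ± 0.33 (SE), with an adjusted p of 1.5e-07 by edgeR in the 8 libraries alone and of 1 with all 40 libraries in the fit. Without replicate 3 it was -1.35.

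FNDC3B, which encodes a fibronectin type III domain protein and spans 362 kb of chromosome 3 (172039578 to 172401669), had 56.0, 48.4, 63.0 and 58.0 CPM with OL9-119. With the combination it had 32.1, 30.3, 47.8 and 24.95 CPM. The groups did not overlap, as the rule required, although replicate 3 lay just below the lowest OL9-119 library (log2 fold change -0.74 ± 0.23, adjusted p by edgeR 1.1e-06 in the 8 libraries, log2 fold change -0.95 without replicate 3). ZFHX3, a zinc finger homeobox transcription factor spanning 1109 kb, had 21.5 to 29.4 CPM with OL9-119 and 15.4, 14.5, 18.9 and 12.8 CPM with the combination (log2 fold change -0.71 ± 0.19). The other 7 lower genes of this rule were GLIS3, SETBP1, ADGRL3, BMPR1B, TSHZ2, AFF3 and the non-coding host gene MIR4435-2HG, with log2 fold changes from -1.001 for GLIS3 to -0.75 for MIR4435-2HG and spans of 388 kb for SETBP1 to 878 kb for ADGRL3. All 10 had values below 0 in the comparison of Tpc with DMSO and in WT. BMPR1B did not pass in the 8 libraries (adjusted p by edgeR 0.109) and the other 9 fell there.

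The 7 higher genes were short. VASN, whose product is a membrane protein that binds TGF-beta and which spans 11.7 kb, had 4.05, 7.76, 2.64 and 5.35 CPM with OL9-119 and 9.60, 13.2, 10.5 and 11.7 CPM with the combination. All combination libraries, replicate 3 among them, were above the OL9-119 libraries, as the rule required (log2 fold change 1.16 ± 0.32, or 1.196 without replicate 3, adjusted p by edgeR 5.2e-04 in the 8 libraries). ABCF3, an ATP-binding cassette protein without a membrane domain, had 28.6 to 35.0 CPM with OL9-119 and 50.1, 43.7, 42.0 and 46.0 CPM with the combination (log2 fold change 0.57 ± 0.17). Both rose in the 8-library fit. RNF166, RBM38, NOL6, DAPK3 and TOB2 had log2 fold changes of 0.65, 0.45, 0.44, 0.44 and 0.40 and did not pass there. VASN and RNF166 were below 0 in WT, at -0.42 and -0.37, neither called.

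Some other genes were chosen for description after their values were seen. PARD3, a cell polarity scaffold spanning 706 kb of chromosome 10, had 178, 182, 177 and 184 CPM with OL9-119 and 108, 97.6, 163 and 101.8 CPM with the combination. The OL9-119 libraries lay close together, and replicate 3 of the combination lay much nearer to them than to its companions. The log2 fold change was -0.62 ± 0.14, and -0.81 without replicate 3, where PARD3 was called with all other libraries in the fit (adjusted p by edgeR 0.00468). The remaining 2 genes called in that fit were EIF4G3, a translation initiation scaffold of 371 kb, and ARID1B, a subunit of the BAF chromatin remodelling complex spanning 435 kb. EIF4G3 had 292, 242, 253 and 274 CPM with OL9-119 and 151, 144, 278 and 142 CPM with the combination (log2 fold change -0.87 without replicate 3, adjusted p by edgeR 1.8e-04). ARID1B had 68.5, 63.6, 66.3 and 74.3 CPM with OL9-119 and 37.8, 36.1, 66.3 and 32.4 CPM with the combination. In both genes replicate 3 lay inside the OL9-119 range. CDK14, a cyclin-dependent kinase gene of 744 kb, behaved alike, with 28.9 to 39.7 CPM against 15.3, 12.2, 34.8 and 11.3 CPM.

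NEAT1, the non-coding RNA that builds paraspeckles, had the lowest unadjusted p of all genes (1.3e-05) although it spans only 22.8 kb. It had 641, 689, 578 and 595 CPM with OL9-119 and 454, 384, 469 and 475 CPM with the combination. Here replicate 3 lay with its own group. The log2 fold change was -0.49 ± 0.10, or -0.52 without replicate 3, and NEAT1 was called by DESeq2 over all 40 libraries (adjusted p 0.00469). It was at -0.22 in the comparison of Tpc with DMSO and at -0.11 in WT.

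**Figure D2:**
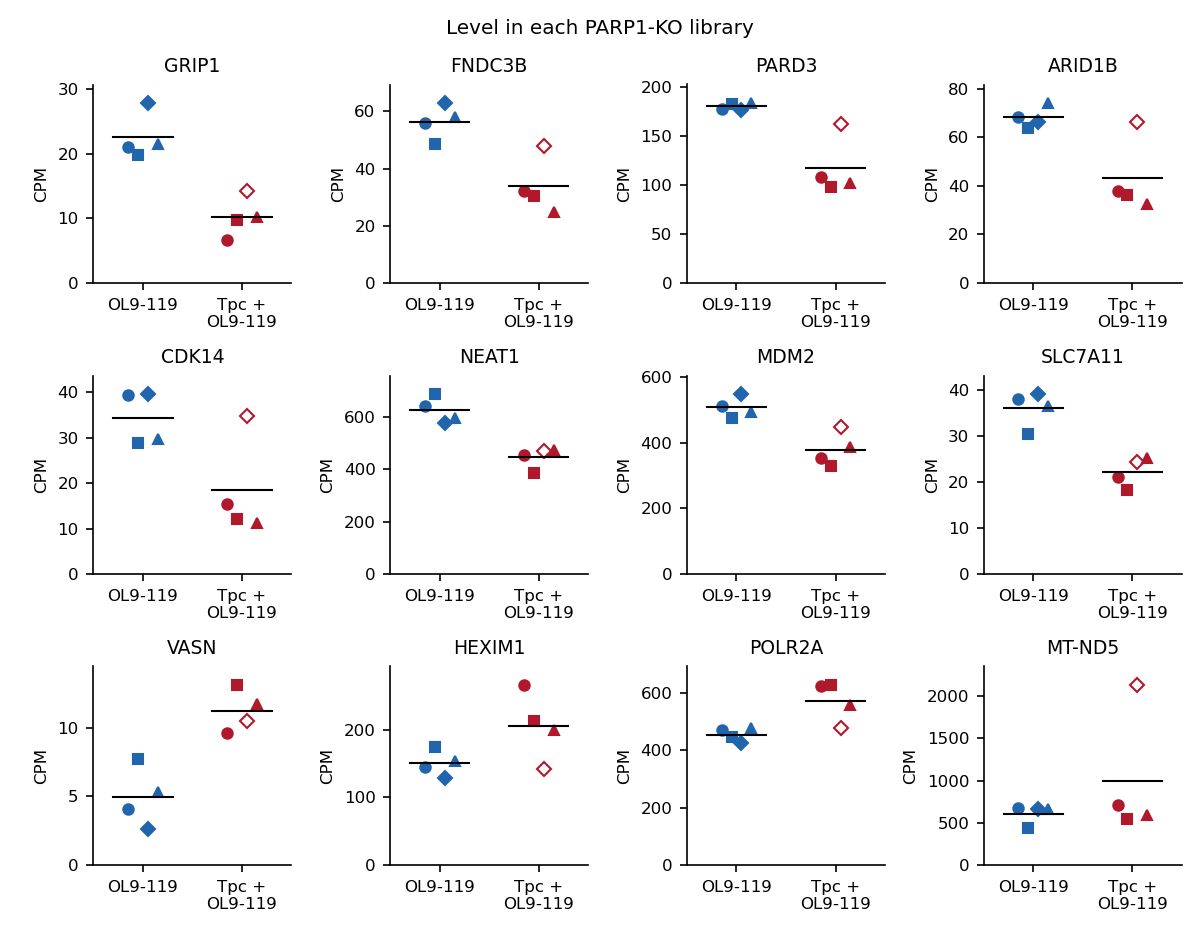
CPM (vertical axes, from 0) of 12 genes in the OL9-119 (blue) and Tpc + OL9-119 (red) libraries of PARP1-KO cells, circles, squares, diamonds and triangles marking replicates 1 to 4, the open diamond combination replicate 3 and black lines the mean of 4. For PARD3, ARID1B and CDK14 the open diamond (163, 66.3 and 34.8 CPM) stands far above the other combination libraries, whereas for NEAT1 (469 CPM) and VASN (10.5 CPM) it lies among them, and for MT-ND5 it stands alone at 2139 CPM. GRIP1, FNDC3B and VASN were picked for having no overlap between the groups, this library included.

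Genes were then grouped by function. The 29 lists were described by counts and medians beside the median of all 28922 genes, 0.004, and no member of any list was called with all libraries in the fit. Proteins that act on trapped TOP1 came to 31 genes with a median log2 fold change of 0.03, also 0.03 without replicate 3, with 16 above and 15 below 0. TOP1 itself, of 95.7 kb, had 382 to 439 CPM with OL9-119 and 362, 334, 437 and 360 CPM with the combination (log2 fold change -0.14 ± 0.10). The combination was lower in 3 libraries and replicate 3 was inside the OL9-119 range. TDP1, the target of OL9-119, had 49.2, 26.5, 30.3 and 31.9 CPM and then 23.5, 28.8, 25.9 and 21.7 CPM, with overlapping groups (-0.46 ± 0.25, unadjusted p by edgeR 0.0705). TDP2, which removes trapped topoisomerase 2, was at 0.05 ± 0.15, and SPRTN, a protease of proteins crosslinked to DNA, at 0.29 ± 0.16.

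The 44 measured genes of homologous recombination and the checkpoint had a median of -0.11, or -0.12 without replicate 3, with 32 below 0. Of the 44, 4 were lower at an unadjusted p under 0.05, beside 2.55% of all genes. CHEK2, a checkpoint kinase, had 67.5, 60.3, 75.8 and 71.7 CPM with OL9-119 and 48.1, 52.0, 56.4 and 59.4 CPM with the combination, without overlap (-0.35 ± 0.13). In WT the median of this list was 0.11, and none of its members was called there. Base excision repair genes had a median of 0.06, or 0.11 without replicate 3, with 22 of 33 above 0. FEN1, the flap endonuclease, was at 0.26 ± 0.12 and APEX2, an AP endonuclease, at 0.33 ± 0.14, and neither passed in the 8 libraries.

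The genes of transcription elongation by RNA polymerase II were considered next. HEXIM1, which holds the elongation kinase P-TEFb inactive, spans 3.63 kb and had 145, 174, 129 and 154 CPM with OL9-119 and 267, 213, 141 and 199 CPM with the combination. Replicates 1, 2 and 4 were above every OL9-119 library and replicate 3 was among them (log2 fold change 0.44 ± 0.13, adjusted p by edgeR 5.2e-04 in the 8 libraries). POLR2A, the largest subunit of RNA polymerase II, had 426 to 476 CPM with OL9-119 and 624, 629, 478 and 556 CPM with the combination (0.33 ± 0.13, adjusted p by edgeR 0.00760 in the 8 libraries). Both rose in that fit, the only 2 of 33 elongation genes to do so, beside 8 of the 13425 protein-coding genes of the length classes. The median of their list was 0.02, or 0.05 without replicate 3.

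Chromatin remodelling and histone modification gave the lowest median of the lists, -0.21, or -0.25 without replicate 3, with 29 of 35 genes below 0. Of these 35 genes 25 span 100 kb or more. ARID1B and KMT2C, a histone H3 methyltransferase gene of 302 kb, fell in the 8-library fit, and 12 members fell in the 7 libraries without replicate 3. Among all protein-coding genes of 100 kb and more, 4.11% fell in the 8 libraries and 15.1% in the 7. KMT2C had 119, 95.6, 87.8 and 100.3 CPM with OL9-119 and 60.9, 64.9, 92.5 and 69.7 CPM with the combination. The list median by library was -0.25, -0.31 and -0.26 for combination replicates 1, 2 and 4 and -0.03 for replicate 3, against -0.07 to 0.06 for OL9-119. Focal adhesion and cytoskeleton genes, 21 of 34 of them spanning 100 kb or more, had a median of -0.01, or -0.10 without replicate 3, and 5 fell in the 8 libraries. Among these PTK2, the focal adhesion kinase, had 166, 165, 149 and 165 CPM with OL9-119 and 99.3, 98.7, 158 and 95.8 CPM with the combination (-0.51 ± 0.15). DIAPH2, a formin of 920 kb, was at -0.61 ± 0.20 and DOCK1, a Rac activator of 547 kb, at -0.45 ± 0.18.

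Among 31 targets of p53 the median was 0.05, or 0.08 without replicate 3, with 20 above 0. MDM2, the ubiquitin ligase of p53, spans 37.4 kb and had 513, 476, 550 and 494 CPM with OL9-119 and 354, 328, 448 and 386 CPM with the combination, without overlap. Its log2 fold change was -0.42 ± 0.12, and it fell in the 8 libraries (adjusted p by edgeR 5.4e-05). CDKN1A, the p21 inhibitor of cyclin-dependent kinases, had 273 to 293 CPM with OL9-119 and 322, 350, 342 and 316 CPM with the combination, also without overlap (0.22 ± 0.10, adjusted p by edgeR 0.297 in the 8 libraries). FDXR, a mitochondrial reductase, was at 0.51 ± 0.19. MDM2 was at -0.15 in the comparison of Tpc with DMSO and at -0.07 in WT.

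Cell cycle genes were described in a pair of lists, which were not tested against each other. The 38 genes of G2/M and mitosis had a median of -0.11, with 28 below 0, and of -0.21 without replicate 3. CENPE, a kinetochore motor, had 80.8, 53.7, 75.1 and 74.9 CPM with OL9-119 and 38.9, 36.2, 69.4 and 45.5 CPM with the combination (-0.58 ± 0.17, adjusted p by edgeR 7.5e-05 in the 8 libraries). Its groups overlapped through replicate 3. HMMR was at -0.37 ± 0.15 and BUB1, a spindle checkpoint kinase, at -0.30 ± 0.13. In the 7 libraries 8 members of the list fell, beside 3.55% of all protein-coding genes of the length classes. The 49 genes of G1/S and DNA replication had a median of 0.09, or 0.12 without replicate 3, with 31 above and 18 below 0. In the 7 libraries 3 of them rose and 3 fell, beside 82 that rose and 477 that fell among the 13425 protein-coding genes. CDC6, which loads the replicative helicase, was at 0.26 ± 0.11 and E2F1, the transcription factor of S phase entry, at 0.32 ± 0.13. PRIM2, the large primase subunit, spans 332 kb, was at -0.56 ± 0.19 and was the only member of this list called in the 8 libraries, where it fell.

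Genes of stress and metabolism gave small medians, among them 0.03 for 34 targets of ATF4, the transcription factor of the amino acid response, and -0.02 for 17 genes of NRF2 and glutathione, or 0.08 and -0.10 without replicate 3. SLC7A11, the cystine transporter, had 37.9, 30.5, 39.2 and 36.5 CPM with OL9-119 and 21.1, 18.1, 24.4 and 25.2 CPM with the combination, with replicate 3 among its companions (-0.70 ± 0.21, adjusted p by edgeR 2.1e-04 in the 8 libraries). DDIT4, an mTORC1 inhibitor of 2.12 kb, had 247, 311, 257 and 236 CPM and then 178, 216, 188 and 215 CPM (-0.40 ± 0.14, adjusted p by edgeR 7.1e-04 in the 8 libraries). Both fell in the 8 libraries, and in both, SLC7A11 with a span of 78.25 kb, replicate 3 followed its group. DDIT4 also fell in WT, at -0.66 (adjusted p by edgeR 0.00562).

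Transcripts of the mitochondrial genome had a median of 0.18, or 0.09 without replicate 3, and 1 library carried the leading member. MT-ND5, a subunit of respiratory complex I, had 672, 438, 659 and 668 CPM with OL9-119 and 711, 548, 2139 and 598 CPM with the combination. The adjusted p by edgeR in the 8 libraries was 6.1e-17, and it was 0.995 without replicate 3, where the log2 fold change went from 0.71 to 0.02. Of the other members, MT-ND4, another subunit of complex I, rose in the fit of the 8 libraries (0.28 there, adjusted p by edgeR 0.00882) and MT-RNR1, a ribosomal RNA of mitochondria, fell (-0.25 there, adjusted p by edgeR 0.00787). In the 7 libraries without replicate 3, MT-ND4 was not called (adjusted p by edgeR 0.0748). Of the whole list, 1 member rose there and none fell. Nuclear-encoded genes of oxidative phosphorylation (79 genes), cytosolic ribosomal proteins (82), mitochondrial ribosomal proteins (76) and proteasome subunits (42) had medians of 0.08, 0.03, 0.07 and 0.08, with no member called in the 8 libraries. The remaining lists, namely aminoacyl-tRNA synthetases (-0.01), ER chaperones (0.02), cytosolic heat shock genes (0.03), interferon-stimulated genes (-0.02), the BCL2 family (0.12), replication-dependent histones (0.15), spliceosome proteins (0.06), SR proteins and CLK kinases (0.05), nucleolar ribosome biogenesis (0.06), snoRNA host genes (0.03) and heparan sulfate synthesis (-0.03), had no member called in the 8 libraries except DDX10, a nucleolar helicase of 276 kb, which fell (-0.47 ± 0.18, adjusted p by edgeR 0.00980).

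**Figure D3:**
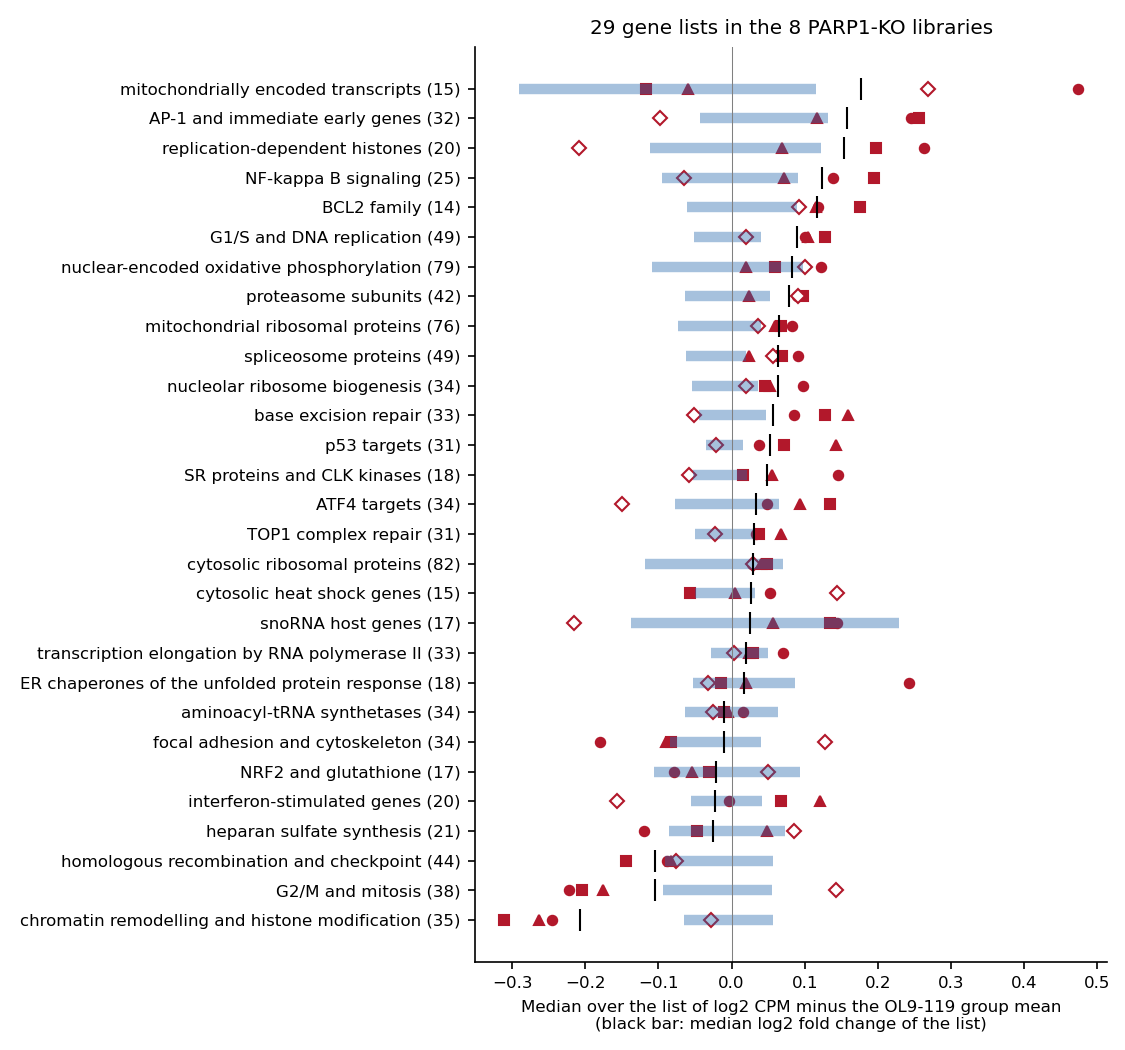
Median over each gene list of log2 CPM minus the OL9-119 group mean (horizontal axis) for 29 lists (number of genes with a mean of at least 10 counts in brackets). Red circles, squares, open diamonds and triangles mark combination replicates 1 to 4, blue bands the range of the 4 OL9-119 libraries and black ticks the median log2 fold change, which runs from -0.21 for chromatin remodelling to 0.18 for mitochondrially encoded transcripts.

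The same dose of Tpc was given without OL9-119, and its comparison with DMSO used 8 other PARP1-KO libraries. No gene was called there with all libraries in the fit (0%), with 444 higher and 657 lower at an unadjusted p under 0.05 (1.54% and 2.27%). The decline with span was seen again, with medians of 0.01 under 10 kb, -0.21 at 200 to 500 kb and -0.35 at 500 kb and more. Of the 131 genes that fell in the 8 libraries of the comparison with OL9-119, 130 were below 0 after Tpc alone, with a median of -0.39, and 63 were lower at an unadjusted p under 0.05. All genes of 200 kb and more had a median of -0.229 after Tpc alone, and the 13425 protein-coding genes one of -0.002. Of the 74 genes of 500 kb and more with a mean of 200 or more counts, 65 were below 0 after Tpc alone. The share among all genes of 200 kb and more was not counted there. The 2 comparisons share no library. Of the 9 genes that rose, 3 were below 0 after Tpc alone and none was called. Among all 13425 protein-coding genes the log2 fold changes of the 2 comparisons had a correlation of 0.18, and of 0.30 among genes of 100 kb and more, given as a description across genes.

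The library labelled DMSO replicate 3 also differed from the rest of its group. The level of the 1111 genes of 200 kb and more, as the median log2 difference from untreated PARP1-KO cells, was -0.03, -0.01, -0.20 and 0.01 in the 4 DMSO libraries and ran from -0.32 to -0.21 in the 4 Tpc libraries. With OL9-119 it was 0.09, -0.02, 0.09 and 0.10, and with the combination it was -0.34, -0.34, 0.05 and -0.29. The Tpc libraries and combination replicates 1, 2 and 4 thus lay at or below -0.21, the untreated and OL9-119 libraries lay between -0.05 and 0.10, and each of the 2 replicate 3 libraries lay apart from its own group. By Dixon's test of the value farthest from its group, combination replicate 3 and OL9-119 replicate 2 (-0.02) passed in this measure. DMSO replicate 3 did not pass. Both replicate 3 libraries carried the name prefix L02, as did replicates 2 and 3 of OL9-119 and of Tpc and replicates 3 and 4 of the untreated cells. Whether the labels of the 2 replicate 3 libraries match their content was not tested. Without DMSO replicate 3, the median for genes of 500 kb and more was -0.47 in the comparison of Tpc with DMSO.

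**Figure D4:**
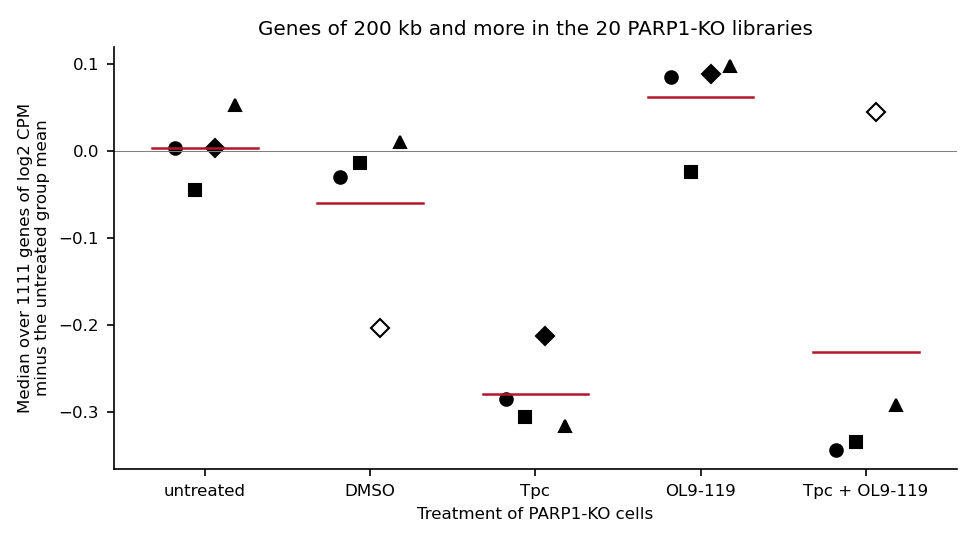
Median over 1111 protein-coding genes of 200 kb and more of log2 CPM minus the untreated group mean (vertical axis) in the 20 PARP1-KO libraries by treatment, circles, squares, diamonds and triangles marking replicates 1 to 4 and red lines the mean of 4. DMSO replicate 3 (open diamond, -0.20) lies near the Tpc libraries and combination replicate 3 (open diamond, 0.05) lies among the OL9-119 libraries.

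The difference between the responses to Tpc with and without OL9-119 was tested directly. No gene passed (edgeR, 0 of 28922, 0%), with 578 higher and 390 lower at an unadjusted p under 0.05 (2% and 1.35%), and DESeq2 over all libraries called 1. Leaving out both replicate 3 libraries left the count at 0, and 3 genes passed when only the remaining libraries of this contrast were fitted. For PARD3 the log2 fold changes were -0.62 with OL9-119 and -0.61 without it, and for EIF4G3 they were -0.57 and -0.64. A gene that did not pass is not shown to have responded alike.

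In WT cells Tpc at 100 nM with OL9-119 against OL9-119 alone gave 72 genes that rose (0.249%) and 46 that fell (0.159%). The median log2 fold change was -0.25 for genes of 200 to 500 kb and -0.54 for genes of 500 kb and more, beside -0.28 and -0.44 in PARP1-KO cells. By library, the level of genes of 200 kb and more against untreated WT cells ran from -0.058 to 0.309 with OL9-119. It ran from -0.245 to -0.022 with the combination, so that the WT groups overlapped. Untreated WT libraries ran from -0.216 to 0.268. Of the 131 genes that fell in the 8 PARP1-KO libraries, 93.9% were below 0 in WT, with a median of -0.52. All genes of 200 kb and more had a median of -0.284 in WT, and the share of them below 0 was not counted. Of the 74 genes of 500 kb and more with a mean of 200 or more counts in the 8 PARP1-KO libraries, 63 were below 0 in WT.

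**Figure D5:**
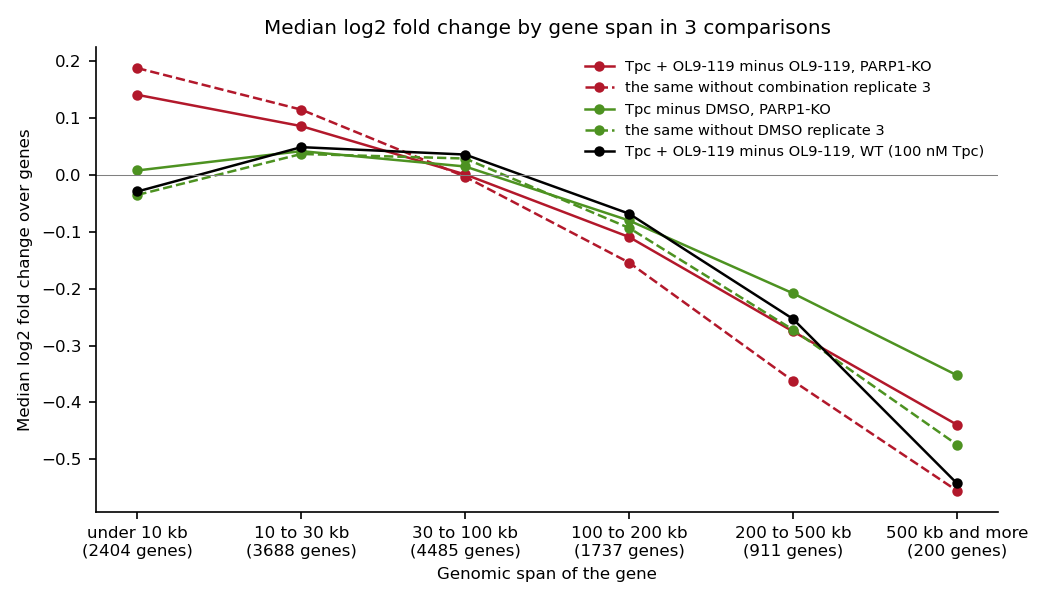
Median log2 fold change over genes (vertical axis) for 6 classes of genomic span (horizontal axis, number of genes below each) in 3 comparisons, dashed lines leaving out the library labelled replicate 3 of the PARP1-KO combination or of PARP1-KO DMSO. All lines lie below 0 from 100 kb upwards and reach -0.35 to -0.56 at 500 kb and more.

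Genes that responded differently in the genotypes were tested for directly, and 7 of the 22 that passed were on the NF-kappa B list. That list had 28 members among the 28922 genes tested and was compiled with earlier results of these data known. NF-kappa B is a family of transcription factors held in the cytoplasm by inhibitors and released by inflammatory signals and DNA damage. The difference between the PARP1-KO and WT responses passed an adjusted p of 0.01 in 22 genes (edgeR, 0.0761%), with 19 lower and 3 higher in PARP1-KO. All 22 were called in WT and none was called in the 8 PARP1-KO libraries, where their log2 fold changes ran from -0.38 to 0.32. The genes were picked by the difference in these same libraries, which favours unlike responses, so these counts are a description only. Without replicate 3 of the PARP1-KO combination 18 of the 22 remained called. In 17 of the 22 genes the mean level with OL9-119 alone was higher in PARP1-KO than in WT. The share of all genes with a higher level was not counted, so this is not shown to be a trait of the 22. Whether genotype or Tpc dose set these differences cannot be told apart.

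The promoters of the 3 genes with the lowest p are shown because all 3 are known targets of NF-kappa B and hold letters matching its binding motif. Each runs from 250 bases before to 50 bases after the RefSeq start on GRCh38.p14, 5′ to 3′ on the plus strand, at chr4:73740319-73740618, chr2:227813592-227813891 and chr6:137867009-137867308. Capitals mark matches on either strand to the 8 words GGANNCCCC, GGANNCTCC, GGANNTCCC, GGANNTTCC, GGGNNCCCC, GGGNNCTCC, GGGNNTCCC and GGGNNTTCC, which may overlap.
CXCL8: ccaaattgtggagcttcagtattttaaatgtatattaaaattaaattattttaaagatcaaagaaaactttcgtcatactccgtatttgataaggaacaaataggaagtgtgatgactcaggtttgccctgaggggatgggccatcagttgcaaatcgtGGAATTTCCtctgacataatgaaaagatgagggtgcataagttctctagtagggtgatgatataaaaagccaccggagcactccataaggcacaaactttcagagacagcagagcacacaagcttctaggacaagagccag
CCL20: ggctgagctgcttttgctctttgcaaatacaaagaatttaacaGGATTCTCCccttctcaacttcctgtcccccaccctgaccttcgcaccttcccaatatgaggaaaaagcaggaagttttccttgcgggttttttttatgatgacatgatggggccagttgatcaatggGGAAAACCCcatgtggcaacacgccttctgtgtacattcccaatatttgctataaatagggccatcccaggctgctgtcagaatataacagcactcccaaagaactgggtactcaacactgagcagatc
TNFAIP3: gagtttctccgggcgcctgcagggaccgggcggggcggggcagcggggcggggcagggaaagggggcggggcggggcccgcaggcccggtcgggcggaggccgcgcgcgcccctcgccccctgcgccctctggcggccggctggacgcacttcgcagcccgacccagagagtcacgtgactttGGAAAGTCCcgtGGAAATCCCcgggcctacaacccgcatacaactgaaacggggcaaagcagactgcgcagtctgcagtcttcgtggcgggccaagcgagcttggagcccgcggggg
The CXCL8 promoter held 1 match, and those of CCL20 and TNFAIP3 held 2 each. Of 35116 promoters of the same length 32.1% held at least 1, so that a match is common and is a description only.

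CXCL8, the neutrophil chemokine interleukin-8, had 46.6, 38.7, 49.1 and 43.3 CPM with OL9-119 and 37.7, 39.4, 37.0 and 42.3 CPM with the combination in PARP1-KO cells. The groups overlapped, with a log2 fold change of -0.18. In WT it went from 18.0 ± 2.09 to 358 ± 69.7 CPM (SD, n = 4), 4.32 on the log2 scale, and the difference was -4.50 ± 0.25 (adjusted p by edgeR 1.2e-20). CCL20, a chemokine of lymphocytes and dendritic cells, had 9.93 to 14.9 CPM with OL9-119 and 8.53 to 14.7 CPM with the combination in PARP1-KO cells, and a difference of -4.42 ± 0.38. TNFAIP3, an inhibitor of NF-kappa B that is itself one of its targets, had 47.0 to 60.5 and 51.3 to 63.1 CPM, and a difference of -2.96 ± 0.26. In each of the 3 the PARP1-KO groups overlapped while the WT means lay far apart, which picking genes by the difference favours.

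Over the whole NF-kappa B list, 25 measured genes had a median log2 fold change of 0.12 in PARP1-KO cells, or 0.19 without replicate 3, with none called, against 1.28 in WT with 12 that rose. Of all genes tested, 0.249% rose and 0.159% fell in WT. Of 32 AP-1 and immediate early genes, which respond within minutes to stress and growth factors, none was called in the 8 PARP1-KO libraries and the median was 0.16, or 0.17 without replicate 3, against 0.42 and 9 that rose in WT. JUNB had 120.5, 172.1, 122.3 and 127.3 CPM with OL9-119 and 182, 208, 107 and 185 CPM with the combination in PARP1-KO cells (0.33 ± 0.17), and rose by 1.117 on the log2 scale in WT. It rose in the 7 libraries without replicate 3, together with 4 others of the list, where 0.287% of all genes tested rose. FOSL1, another AP-1 subunit, was at 0.46 ± 0.23 and at 1.43 in WT. The G2/M list went the other way, with a median of -0.54 and 12 genes that fell in WT. Of the 3 genes with a higher response in PARP1-KO, KIF20A and PLK1 act in mitosis, and they were at -0.10 and -0.10 in PARP1-KO against -1.41 and -1.47 in WT. CREB5, a transcription factor gene of 527 kb, was the only long gene among the 22, at -0.38 in PARP1-KO and 0.88 in WT.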

How the data were processed

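The deposited table held raw counts per gene, which the authors made by aligning paired-end reads to hg38 with STAR 2.7.8 and its gene counting option, with FastQC 0.11.9 and Picard 2.26.6 named in the submitters' processing notes. The strand column used was not given in the sources used here, and 16 of the 22 genes named by the rule overlap another annotated gene, so their reads could not be told apart from those of a neighbour. Of 58395 genes, 28922 had at least 10 counts summed over the 40 libraries and were tested with edgeR 4.0.16 (R 4.3.3, TMM scaling, quasi-likelihood, legacy option on) in 1 model of 10 conditions, with Benjamini-Hochberg adjustment and a threshold of 0.01. DESeq2 1.42.0, the study's tool, was an alternative, as were other scalings, filters and libraries. The scripts were tested on simulated counts. The 8 libraries compared held 8260515 to 15159099 counts, and the number of libraries and this depth limit the precision.

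Spans, merged exon lengths and coordinates came from GENCODE 44 on GRCh38, not from the authors' annotation, and a gene's span includes its longest isoforms. Per-library levels for length classes and lists used log2 CPM with a prior count of 2 and genes averaging 10 or more counts in the 8 libraries. Genes were named where they were called with all libraries in the fit, for the 10 largest changes in each direction by log2 fold change within genes with an unadjusted p under 0.01, a mean of 50 counts and no overlap in CPM (7 qualified upwards), for PARP1, TOP1, TDP1, TDP2 and SPRTN, and for up to 4 members of each list with the lowest p. The members, the 29 lists (1 member unmatched) and the length classes were chosen with earlier results of these data known. Promoter sequences came from RefSeq on GRCh38.p14. Correlations of deviations from the group means between same-numbered libraries were -0.08, 0.38, 0.22 and -0.07, so the numbers were not taken to pair the libraries.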

Additional observations from a re-analysis of the deposited data

Results flagged for a closer look

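A sample far from the others of its group was looked for in 191 groups of 4 values, and 22 such values were found, where chance gives about 1 in 20 groups. The library labelled Tpc + OL9-119 replicate 3 accounted for 11 of them. Neither number can be weighed against that rate of chance. PARD3, EIF4G3 and ARID1B are named as the genes called once that library was left out. CDK14 was chosen after its values were seen, and the length measures share genes. That library had a median of -0.073 for genes of 500 kb and more (the others -0.563 to -0.525), 0.143 for the G2/M and mitosis list (the others -0.222 to -0.176) and 0.045 for the level of genes of 200 kb and more against untreated cells (the others -0.344 to -0.292). It had 278.4 CPM of EIF4G3, 162.6 CPM of PARD3, 34.83 CPM of CDK14, 109.6 CPM of BUB1, 66.27 CPM of ARID1B, 158.3 CPM of PTK2 and 58.05 CPM of DIAPH2, each above its companions. It also had 2139 CPM of MT-ND5, where the others had 547.9 to 711.2 CPM. Among the OL9-119 libraries, replicate 2 had medians of 0.132 for AP-1 genes and -0.291 for mitochondrially encoded transcripts, a level of -0.024 for genes of 200 kb and more, and 114.3 CPM of E2F1, 172.1 CPM of JUNB and 437.8 CPM of MT-ND5. OL9-119 replicate 1 had a median of -0.053 for SR proteins and CLK kinases, replicate 3 had 149.1 CPM of PTK2 and 20.09 CPM of FOSL1, and replicate 4 had 53.37 CPM of CHD7. Combination replicate 4 had a median of 0.024 for proteasome subunits, the others 0.089 to 0.098.

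The response to Tpc with OL9-119 differed between PARP1-KO and WT in 22 genes by the interaction test, with the Tpc dose differing as well. The difference of the log2 fold changes, PARP1-KO minus WT, was -4.797 for CXCL1, -4.498 for CXCL8, -4.417 for CCL20, -4.008 for CD69, -2.963 for TNFAIP3, -2.77 for PTX3 and -2.02 for TCIM. It was -1.7 for TNFRSF9, -1.567 for EFNA1, -1.473 for NFKBIA, -1.419 for IER3, -1.29 for RELB, -1.26 for CREB5, -1.205 for TIFA, -1.131 for SDC4 and -1.131 for PPP1R15A. It was -0.997 for ANKRD1, -0.896 for ATF3 and -0.795 for GABARAPL1, and 1.453 for SAPCD2, 1.375 for PLK1 and 1.318 for KIF20A.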

How the results depend on the processing

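The decline with gene span kept its direction in all 26 alternatives, with medians of -0.57 to -0.39 for genes of 500 kb and more, -0.38 to -0.24 for 200 to 500 kb and 0.11 to 0.19 under 10 kb. The number of called genes did not. In the comparison of Tpc + OL9-119 with OL9-119 in PARP1-KO it was 0 with all libraries and 1 with no filter, 2 by DESeq2, 2 with the 20 PARP1-KO libraries, 140 with only the libraries compared (31 by DESeq2), and 0 to 3 when each library was left out in turn, the 3 being without combination replicate 3. Chosen after seeing the data, leaving out that library gave 568 genes in the 7 libraries alone (599 by DESeq2) and 212 in the 19 PARP1-KO libraries. For Tpc against DMSO the count was 0, against 6 with no filter, 11 with the PARP1-KO libraries, 18 with only the libraries compared (16 by DESeq2) and 201 there without DMSO replicate 3, and 10 without both replicate 3 libraries. For the WT comparison it was 118, against 278 by DESeq2, 210 with no filter, 215 with only the libraries compared (211 by DESeq2), 244 at an adjusted p under 0.05, 49 at a log2 fold change of 1 or more, and 40 to 77 higher and 23 to 50 lower with each library left out, in all 71 and 75 without the WT combination replicates 1 and 2 and 77 and 74 without the WT OL9-119 replicates 2 and 3. The 22 genotype differences became 37 by DESeq2, 41 with only the libraries compared (63 by DESeq2) and 17 to 22 with each library left out. The difference between the responses with and without OL9-119 gave 0 genes, 1 by DESeq2 and 3 with only the libraries compared without both replicate 3 libraries. The cause of these changes was not tested. The sign of TDP2 (0.05) turned when single libraries were left out (-0.025 to 0.137). So did the medians of 10 of the 29 lists, namely TOP1 repair (-0.025 to 0.036), NRF2 (-0.104 to 0.009), interferon-stimulated (-0.074 to 0.051), aminoacyl-tRNA synthetase, ER chaperone, heat shock, cytosolic ribosomal, focal adhesion, heparan sulfate and snoRNA host genes. A further 13 kept their sign and moved by more than 1.5 times, among them NF-kappa B (0.026 to 0.192), p53 (0.006 to 0.079) and ATF4 (0.003 to 0.081). The PARP1 level ranged over 4.57% to 4.95% and 4.74% to 5.20% of WT with each library left out.

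With the replicate block the count of the main comparison was 0 over all 40 libraries and 318 with only the 8 libraries, added after seeing the data. Only 2 of the 4 libraries of the combination correlated best with their own number. The block moved the WT count to 146 and the genotype difference to 24. With 4 libraries a group at this depth, a gene below the threshold is not shown to be the same in both groups.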

Other observations

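Of the protein-coding genes that fell in the fit of the 8 libraries, 9 spanned less than 100 kb, and these were looked at after their values were seen. Beside MDM2, CENPE, SLC7A11 and DDIT4 they were SLC2A3, a glucose transporter (-0.48 on the log2 scale, adjusted p by edgeR 3.4e-06), NDRG1, a stress-responsive gene (-0.38), HAS2, a hyaluronan synthase (-0.69), G2E3, a ubiquitin ligase (-0.48), and PTP4A1, a phosphatase (-0.31). Among non-coding RNAs of that kind, MIR222HG, the host gene of a microRNA cluster, fell by 0.56 in the same fit over a span of 25.1 kb. Of the genes that rose there, NOTCH1, a receptor of cell-to-cell signaling, was at 0.45 and LRFN1, a synaptic adhesion protein, at 0.64.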
